A study of Mus musculus with 6 samples.

Results

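Metabotropic glutamate receptors are the G protein-coupled receptors of glutamate, the main excitatory transmitter of the brain. The genes described here were the rows of the deposited hippocampal expression table whose symbol, letter case aside, is Grm2, Grm3, Grm4, Grm5, Grm7 or Grm8. Of these 6 genes, 5 matched a single row each, out of 22050 genes in the table, and Grm4 was not analysed here. Messenger RNA was sequenced in hippocampus of young mice, in 3 control libraries and 3 libraries from animals given repeated lidocaine injections. Lidocaine numbs by blocking the sodium channels that carry action potentials. For strain, sex, dose, route, number of injections and the treatment of controls the labels give nothing, and the old mice of the study's design were not analysed here. Nothing in the labels ties a library to an animal, so p-values reflect only the spread among these libraries, which may be technical.

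Metabotropic receptors act more slowly than the glutamate-gated ion channels and tune how strongly synapses transmit. They fall into groups by sequence and signalling. Group I, with Grm5, sits mainly beside the postsynaptic density and couples through Gq to phospholipase C, calcium release and protein kinase C. Group II, with Grm2 and Grm3, and group III, with Grm7 and Grm8, couple through Gi/o proteins, lower cyclic AMP and, on nerve terminals, restrain transmitter release. In the hippocampus, Grm2 is known from the mossy fibre terminals of dentate granule cells, Grm3 from both astrocytes and neurons, Grm5 from pyramidal cell dendrites, and Grm7 from the release sites of terminals, where its low affinity for glutamate sets it apart. Grm8, also presynaptic, binds glutamate with higher affinity.

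Total estimated counts ranged from 13887604 to 16984995 per library. The tissue label was checked against marker genes: the pyramidal cell genes Wfs1 (345 to 842 CPM, the count relative to library size) and Fibcd1 (299 to 375 CPM) were present in all 6 libraries, whereas Prox1 of dentate granule cells was listed at 0 in 3 libraries and at 1.32 to 1.55 CPM in the others. Spink8, another pyramidal cell gene, was at 0 to 0.294 CPM. Neurod1 and Bok, the remaining genes listed for hippocampal subfields, were present in all 6 libraries, at 18.8 to 28.3 and 60.2 to 88.4 CPM. The lowest Wfs1 value was in lidocaine 2 and the other 5 libraries were at 677 CPM or more. Cerebellar granule cell markers, 4 of 4 found, summed to 0.253 to 0.553 CPM in controls and 0.565 to 2.24 CPM with lidocaine. All rows carry rat Ensembl identifiers although the labels name the mouse, so no coordinates are given, and values may depend on the match of each gene between the species.

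The receptors spanned a wide range of abundance. On the FPKM scale, which corrects for transcript length and library size, Grm3 was the most abundant of the 5, at 31.3 ± 1.98 (mean ± SD over all 6 libraries), above 88.2% of the genes tested. Grm5 followed at 12.9 ± 0.902 FPKM and Grm7 at 8.13 ± 1.26 FPKM. Grm8, at 2.31 ± 0.331 FPKM, and Grm2, at 1.61 ± 0.425 FPKM, were the least abundant and lay above 30.9% and 24.4% of tested genes. Mean Grm3 was 2.42 times Grm5, Grm5 was 1.59 times Grm7, and Grm7 was 3.52 times Grm8. The ranges of these neighbours were separate over the 6 libraries, whereas those of Grm8 (1.98 to 2.87 FPKM) and Grm2 (1.15 to 2.38 FPKM) overlapped. Within each of the 6 libraries, however, Grm8 was above Grm2. They were closest in lidocaine 1, at 2.49 and 2.38 FPKM.

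**Figure D1:**
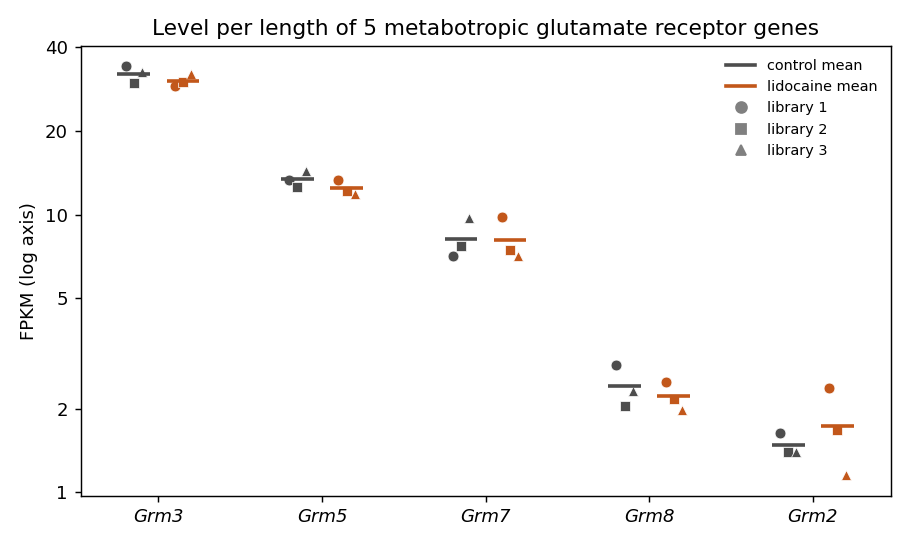
FPKM (log axis) of the 5 receptor genes in each library, with controls in grey, lidocaine in orange, marker shapes for the library number and short lines for group means. Grm3 sits highest, at 29.1 to 34.2 FPKM, and the ranges of Grm8 and Grm2 overlap at the bottom.

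Grm3 made up 51.0% to 59.1% of the summed FPKM of the 5 receptors, and Grm5 22.0% to 23.7%. Grm7 accounted for 14.2% ± 2.02 in controls and 14.7% ± 2.14 with lidocaine (SD, n = 3 each). Over all libraries Grm8 made up 3.66% to 4.86% and Grm2 2.12% to 4.17%. The sum itself was 57.6 ± 3.71 FPKM in controls and 54.9 ± 1.91 FPKM in the lidocaine group (SD, n = 3 per group), and the groups overlapped. Levels between genes rest on the transcript length behind each FPKM. Dividing counts by FPKM and by the table's library total implied mean lengths of 7739 bases for Grm2, 6217 for Grm8, 5260 for Grm3, 5109 for Grm5 and 4232 for Grm7. For Grm8 the implied length varied between libraries, from 5871 to 6499 bases.

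None of the 5 receptors was called different between lidocaine and control hippocampus. The comparison asks whether repeated lidocaine changes hippocampal gene expression, here in young animals only. edgeR's quasi-likelihood test with Benjamini-Hochberg adjustment over 13408 genes called 0 of 5 members, against 0.0149% of all tested genes, which is 2 genes, both lower with lidocaine, whereas DESeq2 called 14 genes higher and 9 lower. None of the 5 had an unadjusted p under 0.05 either, against 4.36% of all tested genes, and DESeq2, limma-voom and limma on FPKM called 0 members. In none of the 5 did the 3 values of a group all lie above those of the other, against 9.98% of all tested genes. Of the 5 fold changes, 1 was positive and 4 were negative, with a median log2 fold change of -0.08, beside 0.00 for all tested genes. The median of the receptors was -0.16 without lidocaine 1 and -0.13 without control 2. On leaving out any other single library it lay between -0.10 and -0.06.

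Grm5, the receptor whose activation drives a protein synthesis-dependent form of synaptic depression, was estimated at 988, 1026 and 1028 counts in controls 1 to 3 and at 1139, 987 and 974 counts in lidocaine libraries 1 to 3. Scaled to library size these are 68.3, 64.8 and 73.4 CPM in controls and 67.0, 61.3 and 61.2 CPM with lidocaine. The control 3 library was highest, and lidocaine 1 lay above control 2, so the groups overlapped. The log2 fold change was -0.12 ± 0.08 (SE), with a 95% interval of the fold from 0.813 to 1.04 and an adjusted p of 0.995 (edgeR, Benjamini-Hochberg). The lidocaine mean was thus 0.918 times the control mean by the fit. Grm5 had a coefficient of variation of 6.30% within controls and 5.24% within lidocaine, beside 3.13% from counting alone.

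Among the group II receptors, Grm3 was estimated at 2597, 2488 and 2386 counts in controls 1 to 3 and at 2620, 2512 and 2712 counts in lidocaine libraries 1 to 3. This corresponds to 179.5, 157.1 and 170.3 CPM in controls and 154.1, 156.04 and 170.4 CPM with lidocaine. Control 1 was highest and lidocaine 1 lowest, while control 3 and lidocaine 3 were level. The log2 fold change was -0.08 ± 0.07 (edgeR, Benjamini-Hochberg-adjusted p = 0.995), with a 95% interval of the fold from 0.846 to 1.06. Of the 5 receptors Grm3 thus had the narrowest interval on the log2 scale.

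Grm3 in the hippocampus comes in part from astrocytes, so astrocyte markers are given beside it. Their sum (5 of 5 found, none at 0 in any library) was 3510 to 3979 CPM in controls and 3622 to 3871 CPM with lidocaine, and 0 of the 5 were called by edgeR. Grm3 followed the marker sum across libraries only in part. Both were highest in control 1 and next highest in lidocaine 3. However, the sum was lowest in control 3, where Grm3 was at 170.3 CPM. The lowest Grm3 was in lidocaine 1, where the sum was 3753 CPM. In bulk tissue, fewer cells of a type and less RNA per cell cannot be told apart.

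Grm2, the autoreceptor that limits glutamate release, had the widest relative range of the 5 receptors over all 6 libraries, but not within controls. It was estimated at 184, 172 and 152 counts in controls 1 to 3 and at 309, 207 and 143 counts in lidocaine libraries 1 to 3. Its 3 controls lay at 12.7, 10.9 and 10.9 CPM, and the lidocaine libraries at 18.2, 12.9 and 8.98 CPM, so that the lidocaine group held both the highest and the lowest value of all 6. The highest was 2.02 times the lowest. The coefficient of variation of Grm2 was 9.38% in controls, below the 16.3% of Grm7 and the 16.2% of Grm8. With lidocaine it was 34.6%, where counting alone gives 7.17%.

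The log2 fold change of Grm2 was 0.22 ± 0.25, with a 95% interval of the fold from 0.782 to 1.73 (edgeR, Benjamini-Hochberg-adjusted p = 0.995). Without lidocaine 1 it turned to -0.067, so the sign of the Grm2 fold change rests on that library. Lidocaine 1 also had the lowest Grm3 of the 6 libraries, and the log2 ratio of Grm2 to Grm3 in FPKM was -3.61 there, against -4.16 and -4.80 in lidocaine 2 and 3 and -4.39, -4.42 and -4.54 in controls 1 to 3. Meningeal markers (5 of 5 found, none at 0) were also highest in lidocaine 1, at a sum of 126 CPM, beside 98.3 and 92.4 CPM in lidocaine 2 and 3 and 81.7 to 87.5 CPM in controls. Oligodendrocyte markers (5 of 5 found, none at 0) were lowest there, at a sum of 6957 CPM, beside 7802 and 9583 CPM in the other lidocaine libraries and 9741 to 11269 CPM in controls. Of the meningeal markers, Lum was higher in control 2 (9.47 CPM) than in lidocaine 1 (7.41 CPM). Lidocaine 1 was not extreme for the summed neuronal markers, but it was for single genes. Gad2 (287 CPM) and Fibcd1 (299 CPM) were lowest there, and Spink8 (0.294 CPM) was highest. Interneuron markers summed to 829 CPM in lidocaine 1, near the low end of 826 to 957 CPM over the 6 libraries. Excitatory neuron markers summed to 3970 CPM there, within 3693 to 4492 CPM over the 6 libraries. Markers of hippocampal subfields summed to 1115 CPM there, within 807 to 1293 CPM. The part of any of these cell types in the Grm2 value was not tested.

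**Figure D2:**
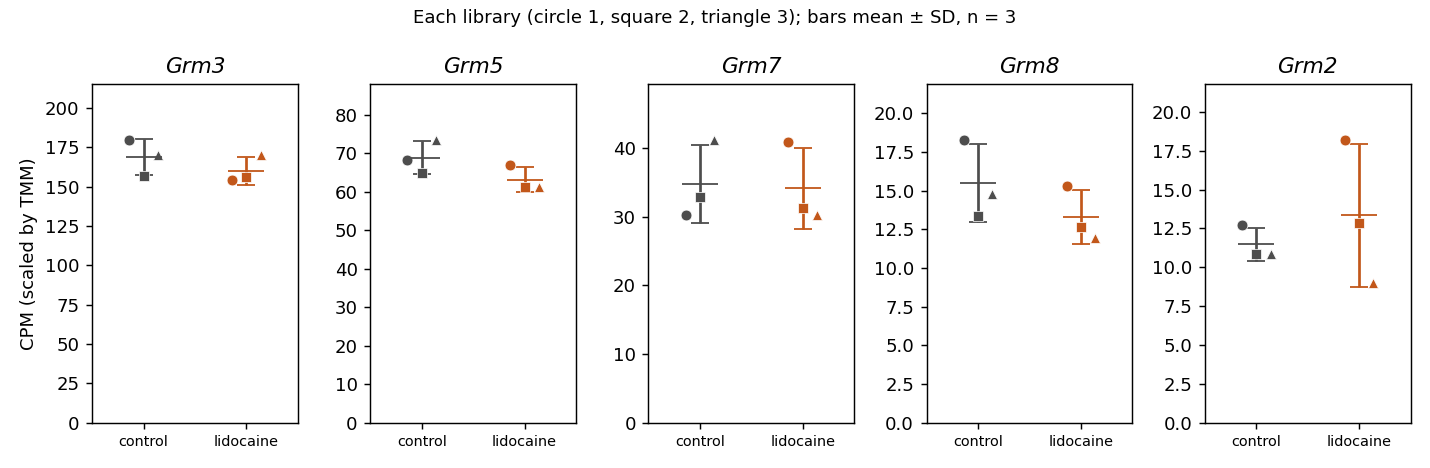
CPM of each receptor (vertical axes from 0, scaled separately for each gene) in 3 control and 3 lidocaine libraries, with marker shapes for the library number and bars for the mean ± SD. The groups overlap in every panel, and Grm2 shows the widest lidocaine group, from 8.98 to 18.2 CPM.

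Among the group III receptors, Grm7 was estimated at 438, 521 and 576 counts in controls 1 to 3 and at 695, 502 and 482 counts in lidocaine libraries 1 to 3. In CPM the controls had 30.3, 32.9 and 41.1 and the lidocaine libraries 40.9, 31.2 and 30.3. In each group 1 library stood near 41 CPM and the others between 30.3 and 32.9 CPM, so that both groups covered the same range. The log2 fold change of Grm7 was -0.03 ± 0.16 (edgeR, Benjamini-Hochberg-adjusted p = 0.997), with a 95% interval of the fold from 0.762 to 1.27. Its sign turned without control 3 (0.11), lidocaine 2 (0.04) or lidocaine 3 (0.05). The spread within groups, 16.3% in controls and 17.2% with lidocaine, was larger than the 4.32% from counting alone.

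Grm8 was the only receptor of the 5 with whole counts in every library, at 264, 212 and 207 for controls 1 to 3 and 260, 204 and 190 for lidocaine libraries 1 to 3. Scaled to library size, controls had 18.3, 13.4 and 14.8 CPM and lidocaine libraries 15.3, 12.7 and 11.9 CPM. Lidocaine 2 and 3 were below all controls, but lidocaine 1 lay above controls 2 and 3. The log2 fold change of Grm8 was -0.22 ± 0.16 (edgeR, Benjamini-Hochberg-adjusted p = 0.995), with a 95% interval of the fold from 0.664 to 1.11. The log2 ratio of Grm7 to Grm8 in FPKM was 1.31, 1.92 and 2.07 in controls 1 to 3 and 1.97, 1.78 and 1.84 with lidocaine, so that control 1 stood lower than the other 5 libraries.

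**Figure D3:**
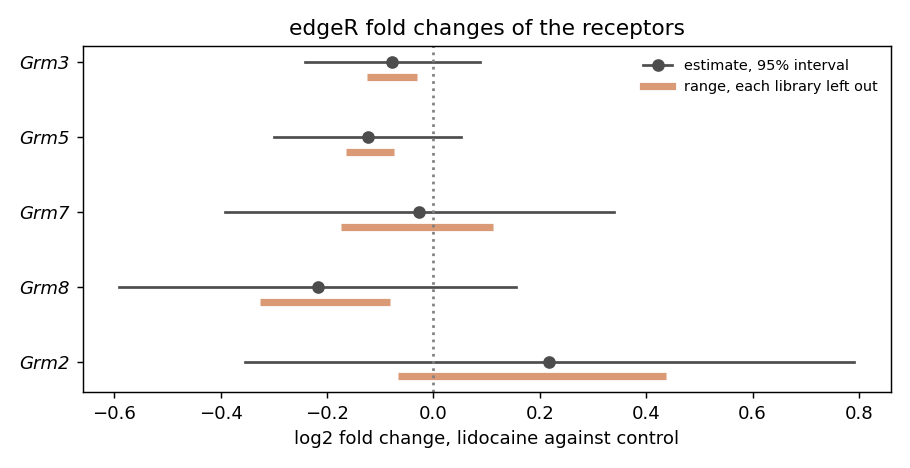
edgeR log2 fold changes of the receptors, lidocaine against control, as points with 95% intervals, and below each the range of the estimate when every library is left out in turn (orange). All 5 intervals include 0, and the orange range crosses 0 for Grm7 and Grm2.

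Genes that work with these receptors were examined in 7 lists. Of their 76 genes, 73 were tested, and edgeR with Benjamini-Hochberg adjustment called 0 of them. An unadjusted p under 0.05 was found for 1 of the 73, against 4.36% of all tested genes. DESeq2, limma-voom and limma on FPKM called 0 as well. Of the 73 fold changes 33 were positive and 40 negative, and the median on the log2 scale was -0.01. In 0 of the 73 genes were all lidocaine libraries above all controls and in 5 they were all below, where 4.89% and 5.09% of all tested genes did so.

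Ligand supply and clearance had 5 positive and 5 negative fold changes over 10 genes, with a median of 0.01 on the log2 scale. Slc17a7, the vesicular glutamate transporter of hippocampal excitatory terminals, had 0.12 ± 0.06 on that scale, or 0.072 without lidocaine 3, and was not called (edgeR, Benjamini-Hochberg-adjusted p = 0.995). Slc1a2, the main astrocytic glutamate transporter, had -0.05 ± 0.06. N-acetylaspartylglutamate, a peptide that activates Grm3, is made by Rimkla and Rimklb and cleaved by Folh1. Their log2 fold changes were 0.03 ± 0.17, -0.12 ± 0.10 and 0.28 ± 0.18, and none was called. For Rimklb the groups were separate, though control 3 (17.1 CPM) was close to lidocaine 3 (16.9 CPM).

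The Gq effectors downstream of Grm5 had 4 positive and 6 negative fold changes over 10 genes, with a median of -0.04. Plcb1, the phospholipase C isoform prominent in hippocampal pyramidal cells, was at 314, 309 and 319 CPM in controls 1 to 3 and 301, 279 and 306 CPM in lidocaine libraries 1 to 3. The groups were separate, with a log2 fold change of -0.09 ± 0.06 (-0.05 without lidocaine 2) that was not called (edgeR, Benjamini-Hochberg-adjusted p = 0.995). Plcb3, a related isoform, had -0.16 ± 0.11, and the G protein subunit Gnaq had -0.02 ± 0.08.

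Of the postsynaptic scaffolds that hold group I receptors, 10 of 11 were tested, with 4 positive and 6 negative fold changes and a median of -0.03. Homer1, which ties Grm5 to the Shank scaffold and to calcium stores, had a log2 fold change of 0.03 ± 0.12. Homer3 had -0.26 ± 0.22, from a control mean of 3.44 ± 0.452 CPM and a lidocaine mean of 2.87 ± 0.317 CPM (± SD, n = 3 per group), and Shank2 had -0.06 ± 0.05. Homer2 was listed at 0, 73.0 and 10.4 counts in controls 1 to 3 and at 90.1, 44.6 and 44.02 counts in lidocaine libraries 1 to 3. Its fold change, the largest of the list, includes a control listed at 0 and is not given.

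The Gi/o effectors of group II and III receptors had 6 positive and 12 negative fold changes over 18 genes, with a median of -0.05. Adcy8, a calcium-stimulated adenylyl cyclase, was at 18.0, 20.5 and 24.1 CPM in controls 1 to 3 and 16.6, 17.6 and 15.1 CPM in lidocaine libraries 1 to 3. The groups were separate, though control 1 was close to lidocaine 2, and Adcy8 was the 1 pathway gene with an unadjusted p under 0.05 in edgeR. That count, out of 73 pathway genes, was 4 with DESeq2, 3 with the replicate number as a block, 0 without control 3 and 5 without control 1. Over all tested genes the same 4 settings gave 527 of 13408, 682 of 13408, 558 of 13608 and 503 of 13625. The log2 fold change of Adcy8, -0.34 ± 0.14, did not pass over all genes (edgeR, Benjamini-Hochberg-adjusted p = 0.995). Without control 3 it was -0.23. Adcy2 had -0.18 ± 0.08, and -0.11 without control 3. Gnao1, the most abundant Gi/o alpha subunit of neurons, was at 336, 353 and 348 CPM in controls and 334, 333 and 334 CPM with lidocaine, a log2 fold change of -0.05 ± 0.05. Its groups were separate too, with control 1 close to the lidocaine libraries. Kcnj3, a subunit of the potassium channels that Gi/o proteins open, had -0.13 ± 0.08.

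Of 8 binding partners of group III receptors 6 were tested, with 3 positive and 3 negative values and a median of 0.03. Pick1, which binds the tail of the Grm7 protein, had a log2 fold change of -0.22 ± 0.12. Elfn1, which recruits Grm7 to terminals across the synaptic cleft, had -0.33 ± 0.19, and its relative Elfn2 had 0.13 ± 0.11. Elfn1 was at -0.17 without lidocaine 1 and -0.18 without control 3. Pick1, Elfn1 and Elfn2 all had an adjusted p of 0.995 (edgeR, Benjamini-Hochberg).

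Desensitisation and RGS proteins, which end receptor signalling, had 5 positive and 3 negative fold changes over 8 genes, with a median of 0.03. The receptor kinase Grk2 had 0.05 ± 0.05, the arrestin Arrb2 had 0.12 ± 0.08 and the RGS protein Rgs2 had -0.17 ± 0.13 on the log2 scale, or -0.07 without control 1 and -0.27 without control 3. Genes of translation-dependent depression, the plasticity that Grm5 can trigger, had 6 positive and 5 negative values over 11 genes and a median of 0.01. Fmr1, the translational repressor lost in fragile X syndrome, was at 32.6, 29.6 and 30.3 CPM in controls 1 to 3 and 17.7, 14.2 and 30.6 CPM in lidocaine libraries 1 to 3. Lidocaine 1 and 2 were low and lidocaine 3 was at the control level, and the log2 fold change of -0.57 ± 0.27 was not called (edgeR, Benjamini-Hochberg-adjusted p = 0.995). Without lidocaine 3 it was -0.95 and without lidocaine 2 -0.35, again not called. Arc, an activity-induced gene that removes AMPA receptors, had -0.25 ± 0.12, or -0.14 without lidocaine 2 and -0.16 without control 1.

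**Figure D4:**
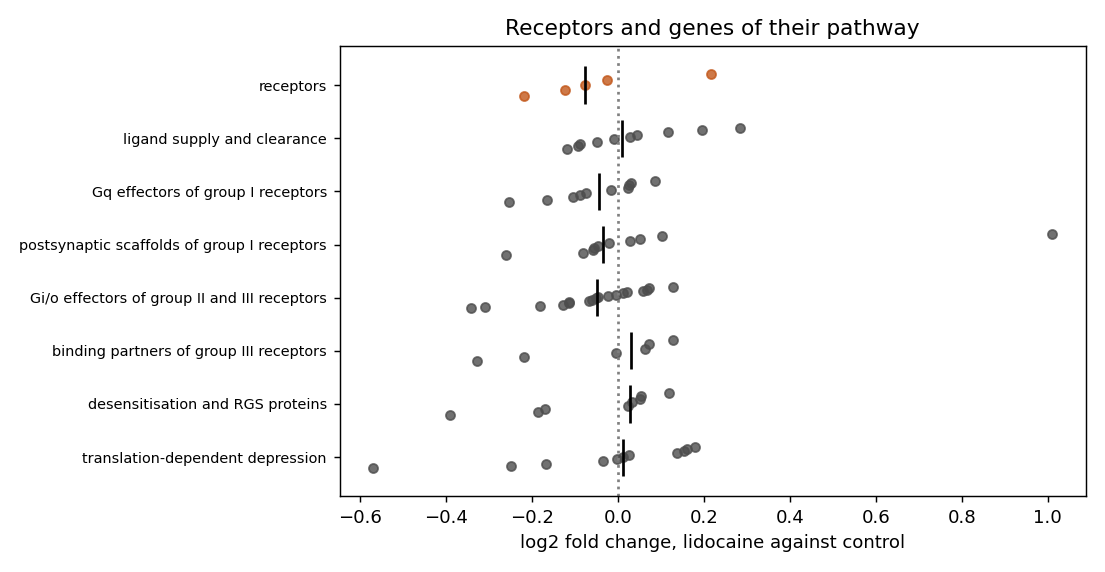
Log2 fold changes, lidocaine against control, of the 5 receptors (orange) and of the tested genes of 7 pathway lists (grey), with a vertical bar at each median. The medians of the lists lie between -0.05 and 0.03, and the point at the far right is Homer2, listed at 0 counts in control 1.

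The pathway genes whose profile over the 6 libraries was most like that of each receptor were taken from 72 candidates by the correlation of log2 CPM. With 6 libraries and 72 candidates some high values arise without any relation. All genes also come from the same libraries, so these are descriptions. Grm5 was most like Adcy2 (r = 0.98) and Shank2 (r = 0.91). Adcy2 was at 121, 117 and 137 CPM in controls 1 to 3 and at 119, 104 and 107 CPM in lidocaine libraries 1 to 3, so that both genes were highest in control 3 and lower in lidocaine 2 and 3 than in any other library. Grm3 was most like Plcb3 (r = 0.89) and the astrocytic glutamate transporter Slc1a3 (r = 0.86). Slc1a3 was at 1280, 1157 and 1220 CPM in controls 1 to 3 and at 1027, 1166 and 1246 CPM in lidocaine libraries 1 to 3, with its highest value in control 1 and its lowest in lidocaine 1, as for Grm3. Other astrocyte markers differed from this profile: Gfap (1878 CPM) and Gjb6 (35.3 CPM) were highest in lidocaine 1, and Aqp4 (786 CPM) was above controls 2 and 3 there. Grm2 was most like the kinase Prkcb (r = 0.90) and the G protein subunit Gng3 (r = 0.84), both highest in lidocaine 1. Grm8 was most like Rgs4 (r = 0.82) and Ptpn5 (r = 0.80), and Grm7 had the lowest top values, with Plcb4 (r = 0.76) and Shank2 (r = 0.72). Between the receptors themselves r ranged from -0.47 for Grm2 with Grm3 to 0.69 for Grm5 with Grm7 and for Grm5 with Grm8.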

How the data were processed

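Per the labels' protocols, a SMARTer kit turned hippocampal RNA into libraries. The build mm10 is named in the submitters' processing notes, while all 22050 rows carry rat identifiers. Which aligner, counter and annotation were used is not given in the sources used here. Deposited by the authors were estimated counts without normalisation, fractional for 4 of 5 members, and FPKM values, scaled by length and depth. Columns were matched to sample titles by group initial and number. Estimated counts were rounded, filtered with filterByExpr (13408 genes kept), scaled by TMM (factors 0.991 to 1.01) and tested with edgeR 4.0.16 in R 4.3.3 (robust quasi-likelihood F-test, two-sided, Benjamini-Hochberg adjustment, calls under 0.05). Standard errors and 95% intervals come from the F statistic, and errors given after fold changes are standard errors. Counting variation is the Poisson value at the mean count and covers counting error only. The smallest p of a permutation test at 3 against 3 is 0.1. Every pair of libraries differed by more than sampling noise (chi-square over its degrees of freedom 9.89 to 17.2). The edgeR test was tried on simulated data.

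The members and gene lists were chosen with earlier results of these data known. Named were all members, called pathway genes, the 2 genes per list with the smallest p, and per member the 2 pathway genes with the highest r (mean of at least 1 CPM, no count of 0). Other pathway genes were chosen after their values were seen, and 1 gene that the rule names is not reported here. Tamalin was matched as Grasp after the table was seen, and Calm2, Calm3 and Cyth2 were not tested. Alternatives were DESeq2 1.42.0, limma-voom and limma on log2(FPKM + 1) or log2(FPKM + 0.1) (limma 3.58.1), other scaling, no filter, a replicate block, each library left out and, added after seeing the data, whole-count genes only.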

Additional observations from a re-analysis of the deposited data

How the results depend on the processing

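Under all 15 alternatives run, 0 receptors and 0 pathway genes were called, although whole-count genes only leaves 1 receptor, Grm8, and 32 pathway genes to test. The count of all genes called was 2 as reported, 23 with DESeq2 (14 higher and 9 lower), 5 with limma on log2(FPKM + 0.1), 0 with whole-count genes only and between 0 and 6 on leaving out single libraries: 1 without control 1, 0 without control 3 or lidocaine 2, and 6 without lidocaine 1. The log2 fold change kept its sign under every alternative run for Grm3, Grm5 and Grm8. With each library left out it ranged from -0.067 to 0.44 for Grm2, from -0.13 to -0.03 for Grm3, from -0.16 to -0.07 for Grm5, from -0.17 to 0.11 for Grm7 and from -0.33 to -0.08 for Grm8. With limma on log2(FPKM + 1) and log2(FPKM + 0.1), Grm8 was at -0.08 and -0.11, against -0.22 in edgeR. The cause of these shifts was not tested. The labels do not say whether libraries with the same number in both groups are paired. Their deviations from the group means correlated at 0.05, 0.03 and 0.00 across genes. Controls 1 and 2 correlated best with their own number and control 3 did not, so these values do not settle whether there is a pairing. With the replicate number as a block, edgeR called 0 of all genes and 0 receptors. Counting error was largest for Grm2 and Grm8, at 143 to 309 and 190 to 264 counts per library, but the spread between libraries exceeded it in all 5 receptors.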
